A study of Sus scrofa with 8 samples.

Results

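The HOX genes are the 34 genes of the count table whose symbol is HOXA, HOXB, HOXC or HOXD followed by a number, out of 22516 genes in all. They comprise 8 HOXA, 9 HOXB, 9 HOXC and 8 HOXD genes, and antisense genes of the clusters were left out. No identifier was mapped to HOXA4, HOXA6, HOXA13, HOXB9 or HOXD13, so these genes were not assessed. HOXC13 was the only paralog 13 tested. They were measured by bulk RNA sequencing of limb muscle tissue from pig (Sus scrofa) embryos, in 8 libraries. Wild-type (WT) embryos and embryos with a knockout (KO) of MYF5, MYOD (symbol MYOD1) and MYF6, transcription factors that commit cells to skeletal muscle, were each sampled at embryonic day 41 (E41) and embryonic day 62 (E62), with 2 libraries in each of the 4 groups. The growth protocol gives another day, E60, for the later stage. The series title says knockdown where the sample titles say knockout. Sample titles call the 2 libraries of a group biological replicates, and the labels do not state how the knockout was made, the breed or, for most libraries, the embryo.

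HOX genes encode homeobox transcription factors that give cells positional identity along the body and limb axes. They lie in 4 clusters, and a number from 1 to 13 marks the place of a gene in its cluster. Genes with the same number in different clusters are paralogs. Low numbers lie at the 3′ end and are used in anterior parts of the body, and high numbers lie at the 5′ end and are used in posterior parts. In mouse limbs the 5′ genes of the HOXA and HOXD clusters pattern the segments from shoulder or hip to digits, and much of their limb expression is in connective tissue rather than in muscle cells. Paralogs 10 are tied to the proximal segment, paralogs 11 to the middle one and paralogs 13 to hand and foot, and HOXC10 and HOXC11 are known as hindlimb genes.

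In RefSeq's annotation of Sscrofa11.1, one of the 2 build names in the submitters' processing notes, 32 of the 34 genes had a symbol match. The measured HOXB genes span chromosome 12 from 24784953 to 24950661. The measured HOXC genes span chromosome 5 from 19151096 to 19268267. The measured HOXD genes span chromosome 15 from 81900962 to 81990026. Of the 32 genes, 15 overlap another annotated gene and 5 overlap another HOX gene of the table. HOXA3 overlaps HOXA5, and HOXD9 overlaps HOXD10 and HOXD11. Counts were estimated and their strand is not stated, so reads of these overlapping genes and of antisense transcripts cannot be told apart with certainty.

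Library totals ranged from 23402052 to 60539245 counts, and HOX genes held 5325 to 23098 of them. The targeted MYF5 and MYF6 had 0 counts in the knockout libraries, and MYOD1 stood between 72.6 and 172 CPM in wild type and between 0.434 and 1.47 CPM in the knockout (CPM is a count divided by its library's total after TMM scaling). Summed markers of skeletal muscle (30 of 32 listed genes in the table) lay between 36400 and 84400 CPM in wild type and between 73.1 and 85.1 CPM in the knockout, where all 30 fell at both stages. The tissue labelled limb muscle thus held its defining markers only at these low levels in the knockout libraries. Summed connective tissue fibroblast markers (13 of 14 in the table) lay at 29600 and 18700 CPM in the E41 WT libraries, 40000 and 42200 in the E41 KO libraries, 23600 and 43200 in the E62 WT libraries and 80800 and 84900 in the E62 KO libraries. Their median log2 change in the knockout was 1.11 at E41 and 1.5 at E62. Over all genes tested, 18.5% were called higher and 20.8% lower in the knockout at E41, and 21% and 26.2% at E62. Of 11 tested blood and macrophage markers, 2 were higher and 1 lower at E41 (18.2% and 9.09%, median 0.66), so the share called higher lay near that of all genes. At E62, 8 were higher and 0 lower (72.7% and 0%, median 1.92). Their sums were 1320 to 4350 CPM in wild type and 4700 to 9630 CPM in the knockout. HBB made up most of these sums, with 1140 to 4110 CPM in wild type and 4330 to 9230 in the knockout. It differed widely between replicates, with 4110 and 1140 CPM in the E62 WT libraries. Of 10 tested endothelial markers, 4 were higher at E41 and 5 at E62 (40% and 50%, medians 0.65 and 0.58), and 0 were lower. Of 11 tested Schwann cell and neuron markers, 4 were higher and 1 lower at E41 (36.4% and 9.09%). At E62, 5 were higher and 2 lower (45.5% and 18.2%). The sum of these markers ran the other way at E62, with 518 and 523 CPM in wild type and 139 and 111 in the knockout. ERBB3 held most of it in wild type, with 464 and 462 CPM against 22.5 and 14.5 in the knockout. At E41 the sum was 598 and 810 CPM in wild type and 602 and 528 in the knockout. The part of tissue composition in any HOX change was not tested, and in bulk tissue fewer cells of a type and less RNA per cell cannot be told apart. Each group carries its own number in the library names, and wild-type E41 libraries carry the code LHL where the others carry RHL. The names of the knockout E62 libraries also lack a suffix that all the others carry. What these mark is not stated, so litter, limb and batch cannot be told apart from group in these comparisons.

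HOX transcripts made up a larger share of the knockout libraries. Their sum was 257 and 264 CPM in the E41 WT libraries, 414 and 394 in the E41 KO libraries, 230 and 263 in the E62 WT libraries and 331 and 385 in the E62 KO libraries. Every knockout library lay above every wild-type library. Most of the difference at E41 lay in paralogs 9 to 13, which summed to 158 and 149 CPM in wild type and 281 and 263 in the knockout. The mean of HOXA10 went from 41.8 to 80.3 CPM, that of HOXA11 from 30.6 to 70.7 and that of HOXD11 from 9.48 to 25.3. HOXA11 and HOXD11 did not pass the edgeR test at E41 (adjusted p = 0.31 and 0.35). Of the 11 tested genes of the class, 2 were called higher (18.2%, against 18.5% of all genes). At E62 the same class stood at 124 and 101 against 125 and 135 CPM, while paralogs 4 to 8 stood at 86.0 and 133 against 176 and 216 CPM. HOXB1 and HOXB13 had 0 counts in every library. HOXC12 had counts in 3 libraries and was left out by the low-count filter, so 31 of the 34 genes were tested.

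**Figure D1:**
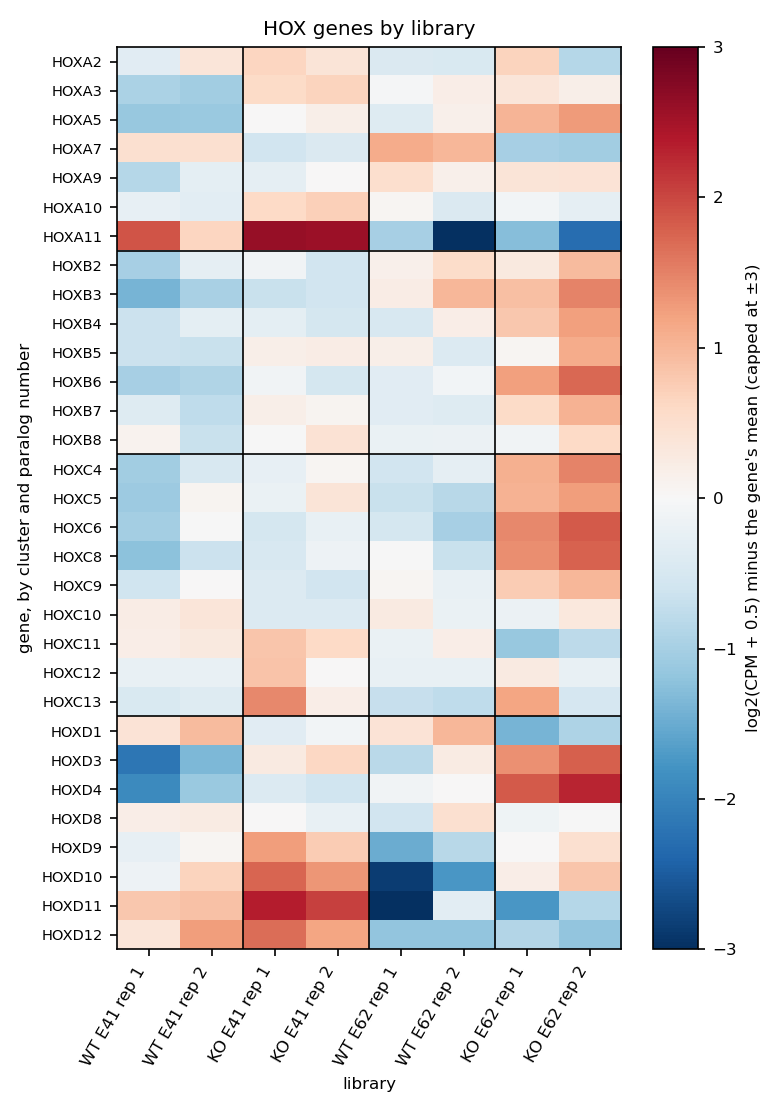
Level of 31 HOX genes with counts (rows, by cluster and paralog number) in each library (columns), as log2(CPM + 0.5) minus the gene's mean over the 8 libraries, with colours capped at 3 units either side of 0. HOXC4 to HOXC9, HOXB6, HOXD3 and HOXD4 are reddest in the 2 knockout E62 libraries, while HOXA11 and HOXD11 are red at E41 and blue at E62.

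At E41, 11 HOX genes differed between knockout and wild type, or 35.5% of those tested against 39.2% of all 17020 genes tested. Of these, 8 rose (25.8% against 18.5% of all genes) and 3 fell (9.68% against 20.8%). At E62, 16 differed (51.6% against 47.2%), of which 13 rose (41.9% against 21% of all genes) and 3 fell (9.68% against 26.2%). The median log2 change of the tested HOX genes was 0.79 at E41 and 1.09 at E62, against 0.09 and 0.06 over all genes. With genes that had at most 3 counts in a group set to their bound or ratio, the HOX median at E62 was 0.74. When libraries were scaled by total count only, the all-gene median moved to 0.38 and 0.36 and that of the HOX genes to 1.07 and 1.39, the calls of all genes went from 47.1% to 73.6% higher at E41 and from 44.5% to 69.4% at E62, and 12 HOX genes were higher and 1 lower at E41. Some low-count genes passed the filter only through the group where they were high, so these counts and medians describe the genes tested and are no support for a family-wide change.

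Calls by cluster and number are given as counts, with no test of a difference between clusters. At E41 the HOXA cluster had 3 genes higher and 1 lower of 8 tested (37.5% and 12.5%). HOXB had 2 and 0 of 7 (28.6% and 0%) and HOXC 0 and 1 of 8 (0% and 12.5%). HOXD had 3 and 1 of 8 (37.5% and 12.5%), against 18.5% higher and 20.8% lower over all genes. At E62 the HOXA cluster had 1 higher and 1 lower of 8 (12.5% each). HOXB had 3 and 0 of 7 (42.9% and 0%) and HOXC 5 and 1 of 8 (62.5% and 12.5%). HOXD had 4 and 1 of 8 (50% and 12.5%), against 21% higher and 26.2% lower over all genes. By number, paralogs 4 to 8 had 4 genes higher at E41 and 9 of 13 at E62, with 1 lower at each stage. For that class 30.8% and 69.2% were higher, against 18.5% and 21% of all genes. Paralogs 9 to 13 had 2 higher and 1 lower at E41 and 3 higher and 1 lower at E62, of 11 tested (18.2% and 27.3% higher). Paralogs 1 to 3 had 2 higher and 1 lower at E41 and 1 and 1 at E62, of 7 tested (28.6% and 14.3% higher). Across the 31 tested genes, paralog number had little relation to the knockout change (Spearman's rho 0.13 at E41 and 0.03 at E62, a description over genes of shared clusters and libraries).

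**Figure D2:**
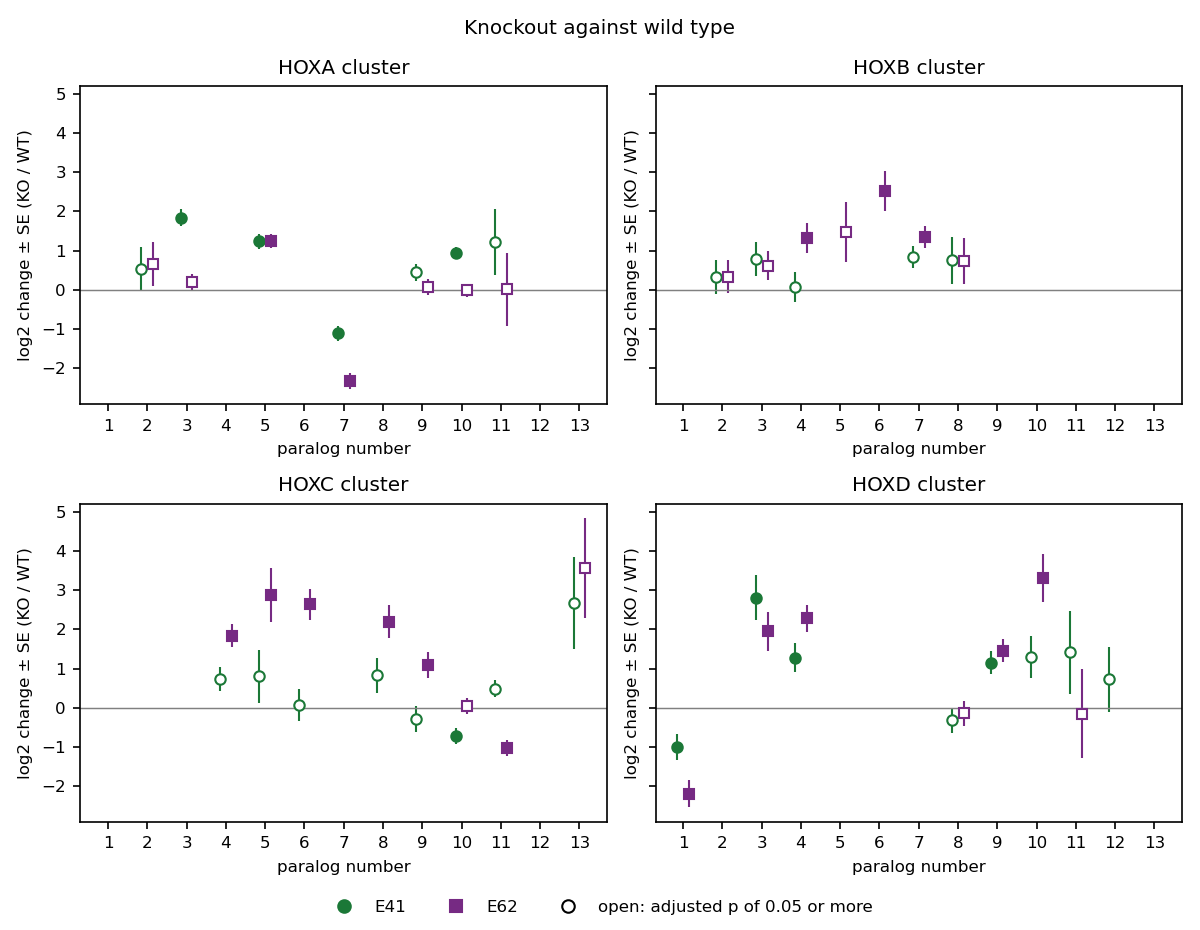
Log2 change of knockout against wild type (y axis, bars are standard errors, n = 2 libraries per group) for tested HOX genes by paralog number (x axis), in 1 panel per cluster, with circles for E41 and squares for E62. Filled symbols passed the edgeR test, and a gene is not drawn where one of its groups had at most 3 counts. HOXA7 and HOXD1 lie below 0 at both stages, and HOXC4 to HOXC9 have filled squares at E62 (1.09 to 2.88) and open circles at E41.

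HOXA7 and HOXD1 were the HOX genes that fell in the knockout at both stages. HOXA7, a mid-cluster gene of trunk identity, stood at 6.43 and 6.46 CPM in the E41 WT libraries, 2.84 and 3.17 in the E41 KO libraries, 10.2 and 9.42 in the E62 WT libraries and 2.02 and 1.92 in the E62 KO libraries. All knockout libraries lay below all wild-type libraries. HOXA7 fell by 1.10 ± 0.19 on the log2 scale at E41 (log2 change ± standard error, n = 2 libraries per group; edgeR adjusted p = 0.0034) and by 2.32 ± 0.20 at E62 (adjusted p = 7.1e-05). HOXD1, the 3′-most HOXD gene, stood at 5.51 and 8.18 CPM in the E41 WT libraries, 3.06 and 3.78 in the E41 KO libraries, 5.53 and 8.54 in the E62 WT libraries and 1.21 and 1.87 in the E62 KO libraries. Here too no knockout library reached a wild-type one. HOXD1 fell by 2.19 ± 0.35 at E62 (adjusted p = 0.0016) and by 1.00 ± 0.34 at E41 (adjusted p = 0.048, 0.015 to 0.24 over alternatives). The E41 call of HOXD1 was lost with library size alone as the scaling (log2 change -0.72, adjusted p = 0.12), with limma-voom, with the 1 CPM filter and without any one of the 6 libraries outside knockout E62, the adjusted p reaching 0.237 when WT E41 replicate 2 was omitted and 0.214 when KO E41 replicate 1 was. HOXA7 kept its call at both stages under every alternative.

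Among paralogs 3, HOXA3 and HOXD3 were higher in the knockout at E41. HOXA3, known for its role in pharyngeal organs in mouse, stood at 2.08 and 1.90 CPM in the E41 WT libraries, 6.85 and 7.38 in the E41 KO libraries, 4.36 and 5.18 in the E62 WT libraries and 5.90 and 5.12 in the E62 KO libraries. The groups were apart at E41 and overlapped at E62. HOXA3 rose by 1.84 ± 0.22 at E41 (adjusted p = 0.00064), and its log2 change at E62 was 0.21 ± 0.20 (adjusted p = 0.43). HOXD3 stood at 0.338 and 0.973 CPM in the E41 WT libraries, 4.03 and 5.30 in the E41 KO libraries, 1.65 and 3.98 in the E62 WT libraries and 9.21 and 12.6 in the E62 KO libraries. Its groups did not overlap at either stage, although the wild-type replicates differed by more than 2-fold at each. HOXD3 rose by 2.81 ± 0.57 at E41 (adjusted p = 0.0077) and by 1.95 ± 0.50 at E62 (adjusted p = 0.016). The E62 call was lost without WT E62 replicate 1 (log2 change 1.45, adjusted p = 0.067, 0.00017 to 0.067 over alternatives). HOXB3 stood at 0.628 and 1.02 CPM in the E41 WT libraries, 1.36 and 1.5 in the E41 KO libraries, 2.95 and 5.45 in the E62 WT libraries and 5.05 and 7.86 in the E62 KO libraries, and neither difference of genotype passed the test (adjusted p = 0.18 and 0.21).

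HOXA5, a regulator of lung and skeletal patterning in mouse, rose by a similar amount at both stages. It stood at 16.2 and 16.7 CPM in the E41 WT libraries, 36.8 and 41.1 in the E41 KO libraries, 27.9 and 40.9 in the E62 WT libraries and 73.8 and 88.8 in the E62 KO libraries. Knockout libraries lay above wild type at each stage. HOXA5 rose by 1.24 ± 0.19 at E41 (adjusted p = 0.0019) and by 1.24 ± 0.18 at E62 (adjusted p = 0.0012). HOXB4 stood at 1.16 and 1.64 CPM in the E41 WT libraries, 1.64 and 1.30 in the E41 KO libraries, 1.38 and 2.47 in the E62 WT libraries and 4.07 and 5.62 in the E62 KO libraries. Its groups overlapped at E41 and were apart at E62, where it rose by 1.33 ± 0.38 (adjusted p = 0.021, 0.0060 to 0.12 over alternatives). That call was lost without WT E62 replicate 1 (adjusted p = 0.12) and without KO E62 replicate 2 (adjusted p = 0.094). HOXB7 stood at 2.27 and 1.64 CPM in the E41 WT libraries, 3.57 and 3.34 in the E41 KO libraries, 2.38 and 2.27 in the E62 WT libraries and 4.94 and 6.94 in the E62 KO libraries. HOXB7 was apart between genotypes at both stages and rose at E62 by 1.35 ± 0.28 (adjusted p = 0.0052), while its change of 0.83 ± 0.28 at E41 missed the threshold (adjusted p = 0.052, 0.015 to 0.19 over alternatives). For HOXB4 the log2 change at E41 was 0.07 ± 0.39 (adjusted p = 0.91).

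HOXC4 to HOXC9, which in mouse mark cervical and thoracic levels of the body, were higher in the knockout at E62. HOXC4 stood at 2.13 and 3.36 CPM in the E41 WT libraries, 4.00 and 5.12 in the E41 KO libraries, 3.10 and 3.98 in the E62 WT libraries and 10.8 and 14.5 in the E62 KO libraries. HOXC5 stood at 0.193 and 1.06, then 0.775 and 1.43, then 0.421 and 0.324, and 2.52 and 3.00 CPM in the same order of groups. HOXC6 stood at 1.74 and 3.98, then 2.65 and 3.39, then 2.62 and 1.77, and 11.8 and 15.5 CPM. In these genes the knockout E62 libraries were the highest of all 8. HOXC8 stood at 0.628 and 1.19, then 1.38 and 1.89, then 2.11 and 1.15, and 6.46 and 8.54 CPM. HOXC9 stood at 1.59 and 2.70, then 1.92 and 1.63, then 2.83 and 2.24, and 4.90 and 5.86 CPM. These genes showed the same order at E62, with knockout E62 above every other library.

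At E62, HOXC4 rose by 1.84 ± 0.29 (adjusted p = 0.0016), HOXC5 by 2.88 ± 0.69 (adjusted p = 0.011) and HOXC6 by 2.64 ± 0.40 (adjusted p = 0.0014). HOXC8 rose by 2.20 ± 0.41 (adjusted p = 0.0034) and HOXC9 by 1.09 ± 0.32 (adjusted p = 0.024). At E41 their log2 changes ran from -0.28 for HOXC9 to 0.83 for HOXC8 and none passed the test (adjusted p from 0.086 for HOXC4 to 0.91 for HOXC6). HOXC4 did pass at E41 with the replicate block (0.75, adjusted p = 0.0285) and with scaling by total count (1.02, adjusted p = 0.0246), and HOXC5 with WT E41 replicate 2 omitted (2.51, adjusted p = 0.0341). The E62 call of HOXC5 was lost without WT E62 replicate 1 (adjusted p = 0.054) and without WT E62 replicate 2 (adjusted p = 0.066, 0.00036 to 0.066 over alternatives). The E62 call of HOXC9 was lost without WT E62 replicate 1 (0.057), without WT E62 replicate 2 (0.12) and without KO E62 replicate 2 (0.089), its adjusted p running from 0.0074 to 0.12 over alternatives. HOXC4, HOXC6 and HOXC8 stayed past the threshold at E62 in every alternative. Of these genes HOXC6 passed the test of the difference between the stages (2.57 ± 0.56, adjusted p = 0.014, and 0.061 when KO E41 replicate 1 was omitted, against 0.083 for HOXC4, 0.15 for HOXC5, 0.13 for HOXC8 and 0.06 for HOXC9). That difference also passed for HOXC9 with DESeq2 (0.0366), with the 1 CPM filter (0.0482) and with WT E41 replicate 1 omitted (0.0348), for HOXC5 with the same library omitted (0.032) and for HOXC4 with the replicate block (0.0365).

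HOXD4 rose with HOXD3, its neighbour in number. It stood at 0.580 and 1.37 CPM in the E41 WT libraries, 2.56 and 2.22 in the E41 KO libraries, 3.31 and 3.59 in the E62 WT libraries and 14 and 19.5 in the E62 KO libraries. The groups were apart at both stages. HOXD4 rose by 1.28 ± 0.37 at E41 (adjusted p = 0.028) and by 2.28 ± 0.34 at E62 (adjusted p = 0.0011). The E41 call was lost with limma-voom (0.13), with only the 2 groups in the fit (0.072), and with omission of WT E41 replicate 1 (log2 change 0.84, 0.085), KO E41 replicate 1 (0.113) or KO E41 replicate 2 (0.0694), the adjusted p running from 0.0052 to 0.13 over alternatives. The E62 call held in every alternative.

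Of paralogs 9 to 13, HOXA10 and HOXD9 were higher at E41 and HOXC9, HOXD9 and HOXD10 at E62. HOXA10, which in mouse patterns the proximal limb segment, stood at 42.7 and 41 CPM in the E41 WT libraries, 77.5 and 83.1 in the E41 KO libraries, 52.6 and 37.4 in the E62 WT libraries and 47.8 and 41.9 in the E62 KO libraries. The knockout E41 libraries stood above all others, and the E62 groups overlapped. HOXA10 rose by 0.94 ± 0.16 at E41 (adjusted p = 0.0029) and its log2 change at E62 was -0.01 ± 0.16 (adjusted p = 0.98). HOXA9 stood at 9.28 and 13.9 CPM in the E41 WT libraries, 14.2 and 17.6 in the E41 KO libraries, 24.6 and 19.2 in the E62 WT libraries and 22.9 and 23.1 in the E62 KO libraries, and no difference of genotype passed (adjusted p = 0.14 and 0.80). At E41 HOXA9 passed with scaling by total count (0.74, adjusted p = 0.0286) and with WT E41 replicate 2 omitted (0.79, adjusted p = 0.0379). HOXD9 stood at 9.86 and 12.2 CPM in the E41 WT libraries, 28.6 and 20.5 in the E41 KO libraries, 3.91 and 6.45 in the E62 WT libraries and 11.9 and 16.5 in the E62 KO libraries. Its groups were apart at both stages. HOXD9 rose by 1.15 ± 0.29 at E41 (adjusted p = 0.018) and by 1.46 ± 0.30 at E62 (adjusted p = 0.0057). The E41 call of HOXD9 was lost with omission of WT E41 replicate 1 (0.097), WT E41 replicate 2 (0.0561) or KO E41 replicate 1 (0.101), within 0.00075 to 0.10 over alternatives.

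HOXD10, the proximal-segment paralog of the HOXD cluster, stood at 5.02 and 9.33 CPM in the E41 WT libraries, 20.2 and 15.0 in the E41 KO libraries, 0.361 and 1.36 in the E62 WT libraries and 6.55 and 10.4 in the E62 KO libraries. Its groups did not overlap at either stage. It rose by 3.30 ± 0.61 at E62 (adjusted p = 0.0051), while the log2 change of 1.29 ± 0.53 at E41 missed the threshold (adjusted p = 0.10, 0.0202 to 0.327 over alternatives). HOXD10 passed at E41 in 5 of 17 alternatives, namely DESeq2 (0.0202), limma-voom (0.0492), only the 2 groups in the fit (0.0257) and omission of WT E62 replicate 1 (0.0335) or replicate 2 (0.0334). The hindlimb genes HOXC10 and HOXC11 had falls in the knockout. HOXC10 stood at 25.4 and 28.3 CPM in the E41 WT libraries, 16.3 and 16.2 in the E41 KO libraries, 26.3 and 18.9 in the E62 WT libraries and 19.1 and 27.4 in the E62 KO libraries, apart at E41 and overlapping at E62. It fell by 0.72 ± 0.21 at E41 (adjusted p = 0.029), and at E62 its change was 0.04 ± 0.21 (adjusted p = 0.89). The E41 call of HOXC10 was lost with library size alone as the scaling (log2 change -0.43, adjusted p = 0.145), with the replicate block (0.05) and without WT E41 replicate 1 (0.0845), WT E41 replicate 2 (0.135), KO E41 replicate 1 (0.111) or KO E41 replicate 2 (0.118), within 0.00276 to 0.145 over alternatives. HOXC11 stood at 10.5 and 11.3 CPM in the E41 WT libraries, 16.6 and 14 in the E41 KO libraries, 7.94 and 10.5 in the E62 WT libraries and 3.90 and 5.11 in the E62 KO libraries. The knockout libraries lay above wild type at E41 and below it at E62. HOXC11 fell by 1.03 ± 0.21 at E62 (adjusted p = 0.0048), and its change of 0.49 ± 0.21 at E41 did not pass (adjusted p = 0.093, 0.0171 with library size alone and 0.05 with only the 2 groups in the fit).

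Of the genes with few counts, HOXB6 was higher in the knockout at both stages and HOXB5 at E41. They and the others of this paragraph were singled out after their values were seen. HOXB6 had 1 and 2 counts in the E41 WT libraries, 24 and 12 in the E41 KO libraries, 12 and 18 in the E62 WT libraries and 140 and 185 in the E62 KO libraries. It was 5.62-fold higher at E41 (95% Clopper-Pearson interval 1.77 to 28.5, counting error only; adjusted p = 0.029) and rose by 2.52 ± 0.51 at E62 (adjusted p = 0.0049). At E41, HOXB5 had 1 and 1 counts in wild type and 22 and 23 in the knockout, 10.5-fold higher (interval 2.75 to 89.6; adjusted p = 0.043), and its change of 1.47 ± 0.76 at E62 did not pass (adjusted p = 0.15). At E41 the call of HOXB5 was lost without any one of the 4 E41 libraries (adjusted p from 0.105 to 0.152), with limma-voom (0.139) and with the replicate block (0.0681), and that of HOXB6 without WT E41 replicate 1 (0.11), WT E41 replicate 2 (0.070) or KO E41 replicate 1 (0.14), with DESeq2 (0.0502) and with limma-voom (0.137). The adjusted p over alternatives ran from 0.0191 to 0.152 for HOXB5 and from 0.0163 to 0.14 for HOXB6. HOXC12 had 0 and 0 counts in the E41 WT libraries against 26 and 4 in the E41 KO libraries, at least 4.68-fold higher when 3 counts are taken as the group's floor, and 0 and 0 against 14 and 0 at E62. HOXC13, known for its role in hair and nail, had E41 counts of 4 and 5 in wild type and 97 and 27 in the knockout, E62 counts of 3 and 2 in wild type and 112 and 10 in the knockout, and missed the threshold at both (adjusted p = 0.11 and 0.052). HOXC13 passed at E62 with DESeq2 (0.0107), scaling by total count (0.036), the replicate block (0.0365) and KO E62 replicate 2 omitted (0.00671), and at E41 with only the 2 groups in the fit (0.041) and with KO E62 replicate 1 (0.0324) or replicate 2 (0.0276) omitted.

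HOXA2, HOXB2, HOXB8, HOXD8, HOXA11, HOXD11 and HOXD12 also passed in no comparison of genotype, and HOXA11, HOXD11 and HOXD12 were singled out after their values were seen. Their log2 changes ran from -0.32 for HOXD8 to 1.41 for HOXD11 at E41. HOXA2 passed at E62 with KO E62 replicate 2 omitted (1.29, adjusted p = 0.0264). HOXD8 passed at E41 with only the 2 groups in the fit (-0.36, adjusted p = 0.0332), and at E62 in opposite directions with WT E62 replicate 1 (-0.58, adjusted p = 0.0126) or replicate 2 (0.50, adjusted p = 0.024) omitted. HOXA11, which with HOXD11 patterns the middle limb segment in mouse, stood at 43.3 and 17.9 CPM in the E41 WT libraries, 71.9 and 69.4 in the E41 KO libraries, 5.44 and 0.825 in the E62 WT libraries and 4.41 and 1.92 in the E62 KO libraries. HOXD11 stood at 9.28 and 9.69 CPM in the E41 WT libraries, 28.1 and 22.5 in the E41 KO libraries, 0.120 and 3.98 in the E62 WT libraries and 1.17 and 2.55 in the E62 KO libraries. In both genes the E41 groups were apart with the knockout above, but the 2 wild-type E62 libraries were far apart, with replicate 1 high in HOXA11 and replicate 2 in HOXD11. Adjusted p at E41 was 0.31 for HOXA11 and 0.35 for HOXD11, and for HOXD11 0.0011 with the 2 E41 groups alone in the fit and 0.021 without either wild-type E62 library (0.0011 to 0.60 over alternatives). HOXD12 had E41 counts of 20 and 50 in wild type and 147 and 97 in the knockout (log2 change 0.73 ± 0.83, adjusted p = 0.53) and E62 counts of 0 and 0, then 8 and 0.

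The comparisons of genotype at the 2 stages share no library. Of the 8 genes that rose at E41, 5 also rose at E62 (62.5% of the E41 list and 38.5% of the 13 at E62), namely HOXA5, HOXB6, HOXD3, HOXD4 and HOXD9. Of the 3 that fell at each stage, 2 fell at both (66.7% of each list), HOXA7 and HOXD1. No HOX gene passed in opposite directions. The sign of the change was the same at both stages in 26 of the 31 tested genes (83.9%, against 66.6% of all genes tested). Over all genes, 40.9% of those higher at E41 were also higher at E62 and 60.6% of those lower at E41 were also lower at E62. The HOX shares rest on 8 and 3 genes. The difference between the stages itself passed for 5 genes, or 16.1% of those tested against 26.8% of all genes, 1 with a higher and 4 with a lower knockout effect at E62 (3.23% and 12.9%, against 11.2% and 15.5%).

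**Figure D3:**
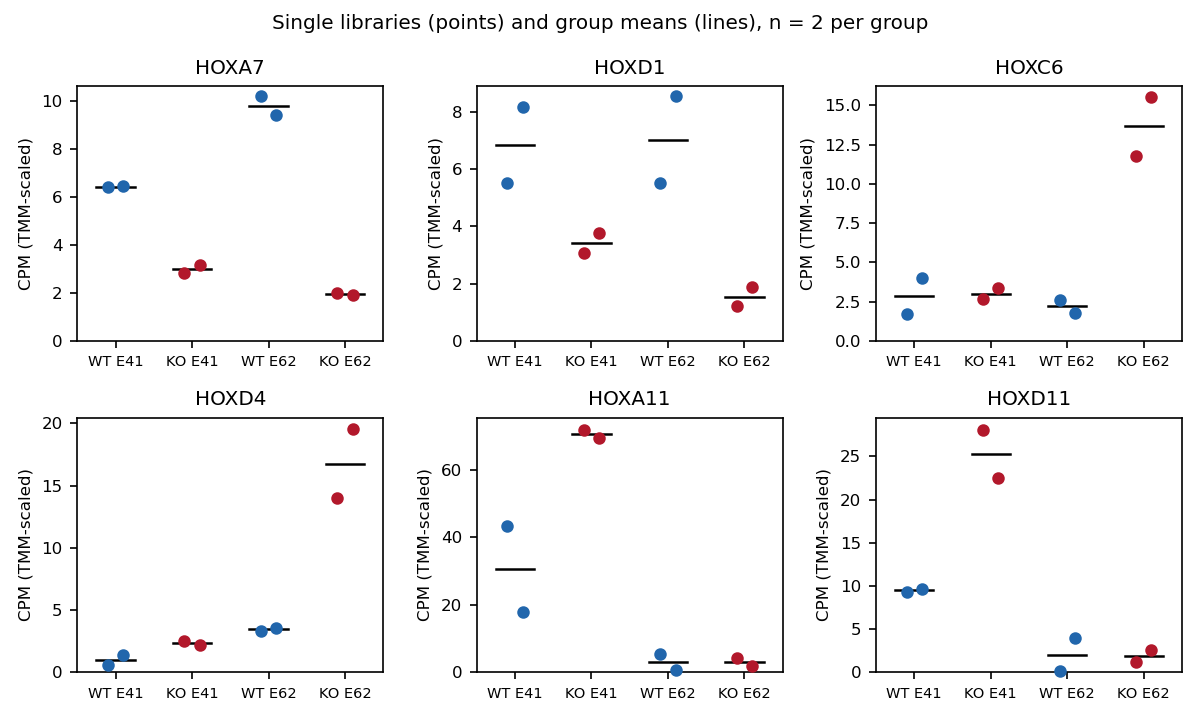
TMM-scaled CPM (y axis, from 0) of HOXA7, HOXD1, HOXC6, HOXD4, HOXA11 and HOXD11 in the 4 groups (x axis), with 1 point per library (blue wild type, red knockout) and a line at the mean of 2 libraries. HOXA7 lies between 6.43 and 10.2 in wild type and between 1.92 and 3.17 in the knockout, while HOXA11 and HOXD11 drop between the stages in both genotypes.

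Most genes that fell between E41 and E62 lay toward the 5′ end. In wild type 12 HOX genes changed, or 38.7% of those tested against 39.8% of all genes, with 8 higher (25.8% against 19.8%) and 4 lower (12.9% against 20%). In the knockout 15 changed, or 48.4% against 30.1%, with 9 higher (29.0% against 12.1%) and 6 lower (19.4% against 18%). All 4 genes that fell in wild type, HOXA11, HOXD9, HOXD10 and HOXD12, are paralogs 9 to 12. In the knockout HOXA10, HOXA11, HOXC11 and HOXD12 fell, together with HOXA7 and HOXD1. Across the 31 tested genes the log2 change between stages went down with paralog number. Pearson's r was -0.50 in wild type and -0.45 in the knockout, and Spearman's rho was -0.50 and -0.41. These are given as a description because genes of a cluster and of a library are not independent. The wild-type r takes in HOXD12 at -9.04, a value that rests on 0 counts at E62. The median of paralogs 9 to 13 was -1.09 in wild type and -0.84 in the knockout, against 0.03 and -0.03 over all genes. That of paralogs 4 to 8 was 0.46 and 1.32, and that of paralogs 1 to 3 was 1.15 and -0.37. The class medians thus went down in order of number in wild type only. In the knockout the median of paralogs 1 to 3 lay below that of paralogs 4 to 8. In wild type the median of paralogs 9 to 13 was -0.18 with the 1 CPM filter, which tests fewer of its genes.

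**Figure D4:**
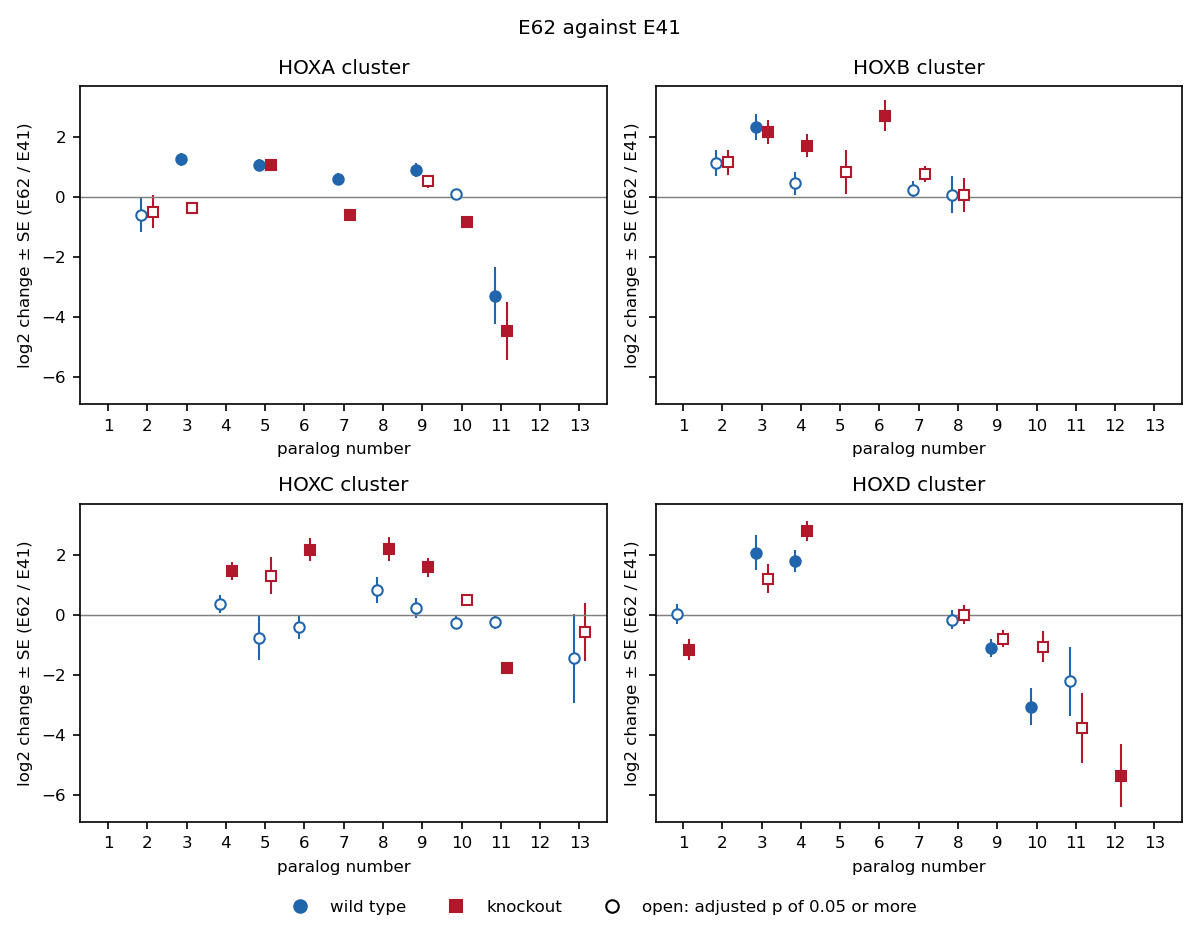
Log2 change of E62 against E41 (y axis, bars are standard errors, n = 2 libraries per group) for tested HOX genes by paralog number (x axis), in 1 panel per cluster, with circles for wild type and squares for the knockout. Filled symbols passed the edgeR test, and a gene is not drawn where one of its groups had at most 3 counts. In HOXD the points drop from paralog 3 and 4 (up to 2.81) to paralog 11 and 12 (down to -5.36).

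HOXA11 had a log2 change between stages of -3.29 ± 0.95 in wild type (adjusted p = 0.046, 0.0041 to 0.15 over alternatives) and -4.47 ± 0.96 in the knockout (adjusted p = 0.025). In each genotype the E62 libraries lay below the E41 libraries. The wild-type call of HOXA11 was lost without any one library other than WT E62 replicate 1 (adjusted p from 0.055 to 0.15), with no low-count filter and with only the 2 groups in the fit. The knockout call was lost without any one of the 4 knockout libraries (adjusted p from 0.059 to 0.10). HOXD12 went from 20 and 50 counts to 0 and 0 in wild type, at least 36.2-fold lower with the same floor (adjusted p = 0.0092), and from 147 and 97 to 8 and 0 in the knockout (-5.36 ± 1.06, adjusted p = 0.013, and 0.068 without KO E41 replicate 1). HOXD10 fell by 3.06 ± 0.62 in wild type (adjusted p = 0.0095), and its change of -1.05 ± 0.52 in the knockout did not pass (adjusted p = 0.17, and 0.026 with limma-voom). HOXC11 and HOXA10 fell in the knockout, by 1.77 ± 0.21 (adjusted p = 0.0017) and 0.84 ± 0.16 (adjusted p = 0.0074), and did not pass in wild type (adjusted p = 0.39 and 0.62). HOXD9 fell by 1.09 ± 0.30 in wild type (adjusted p = 0.025), a call lost without WT E41 replicate 1 (0.068), WT E41 replicate 2 (0.14) or WT E62 replicate 1 (0.12) and with limma-voom (0.078), within 0.0023 to 0.14 over alternatives. HOXD11 did not pass in either genotype (-2.21 ± 1.15, adjusted p = 0.19, and -3.77 ± 1.18, adjusted p = 0.065), although its E62 libraries lay below its E41 libraries in each. Without WT E62 replicate 2 its wild-type change was -6.20 (adjusted p = 0.0041). In the knockout HOXD11 passed with DESeq2 (0.0219), with limma-voom (0.00713), with only the 2 groups in the fit (0.0129) and with WT E62 replicate 1 (0.00261) or replicate 2 (0.00259) omitted.

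The genes that rose between the stages were paralogs 3 to 9. HOXA5 rose by 1.07 ± 0.19 in wild type (adjusted p = 0.0040) and 1.06 ± 0.18 in the knockout (adjusted p = 0.0057). HOXB3 rose by 2.34 ± 0.43 (adjusted p = 0.0046) and 2.17 ± 0.40 (adjusted p = 0.0070, and 0.057 without KO E41 replicate 1). HOXD4 rose by 1.81 ± 0.37 (adjusted p = 0.0073, and 0.0505 with limma-voom) and 2.81 ± 0.34 (adjusted p = 0.0019). HOXB6 also rose in both genotypes (adjusted p = 0.022 and 0.0076), 6.44-fold in wild type from 3 counts to 30 (interval 2 to 33.0). HOXA3, HOXA7, HOXA9 and HOXD3 rose in wild type (adjusted p = 0.0036, 0.035, 0.013 and 0.026) and HOXB4, HOXC4, HOXC6, HOXC8 and HOXC9 in the knockout (adjusted p from 0.0070 to 0.014). In wild type the call of HOXB6 was lost without WT E41 replicate 1 (0.083), WT E41 replicate 2 (0.055) or WT E62 replicate 2 (0.078) and with limma-voom (0.106), and that of HOXD3 without WT E41 replicate 1 (0.10) or WT E62 replicate 2 (0.105) and with limma-voom (0.103). In the knockout HOXC4 (0.075), HOXC6 (0.061), HOXC8 (0.066), HOXC9 (0.057) and HOXB4 (0.068) lost the call without KO E41 replicate 1. HOXB4 (0.093), HOXC9 (0.073) and HOXB6 (0.060) lost it without KO E41 replicate 2, and HOXB4 (0.059) without KO E62 replicate 2.

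HOXA7 and HOXD1, the genes that fell in the knockout at both stages, were not tested against each other in their course. The knockout effect at E62 minus that at E41 was -1.22 ± 0.27 for HOXA7 and -1.19 ± 0.48 for HOXD1 (edgeR adjusted p = 0.014 and 0.1). HOXA7 rose by 0.61 ± 0.19 in wild type (adjusted p = 0.035) and fell by 0.61 ± 0.19 in the knockout (adjusted p = 0.046). The latter call was lost in 16 of 17 alternatives (adjusted p from 0.046 to 0.21), and the former without any one of the 6 libraries outside knockout E62 (0.067 to 0.11), with the replicate block (0.056) and with only the 2 groups in the fit (0.054). HOXD1 fell in the knockout by 1.15 ± 0.34 (adjusted p = 0.038) and its change in wild type was 0.04 ± 0.33 (adjusted p = 0.94). The knockout call of HOXD1 was lost without KO E41 replicate 1 (0.096), KO E41 replicate 2 (0.16) or KO E62 replicate 1 (0.136) and with only the 2 groups in the fit (0.0604).

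PBX, MEIS, PKNOX and TGIF genes encode homeobox proteins of the TALE class, of which PBX and MEIS bind DNA together with HOX proteins. Of 10 tested, 3 were higher and 1 lower in the knockout at E41 and 2 higher and 3 lower at E62, with a median log2 change of 0.24 and -0.08 against 0.09 and 0.06 over all genes. The shares were 30% higher and 10% lower at E41, against 18.5% and 20.8% of all genes, and 20% and 30% at E62, against 21% and 26.2%, so with 10 genes they lay near the background. MEIS1 stood at 13.3 and 19.9 CPM in the E41 WT libraries, 33.4 and 36.3 in the E41 KO libraries, 11.6 and 12.0 in the E62 WT libraries and 33.9 and 24.3 in the E62 KO libraries. The knockout libraries lay above wild type at both stages, with changes of 1.07 ± 0.22 (adjusted p = 0.0073) and 1.30 ± 0.22 (adjusted p = 0.0023). MEIS2 rose at E62 by 1.74 ± 0.31 (adjusted p = 0.0038) and PBX3 at E41 by 0.75 ± 0.14 (adjusted p = 0.0040). PKNOX2 stood at 59.7 and 59.1 CPM in the E41 WT libraries, 13.3 and 12.2 in the E41 KO libraries, 72.2 and 65.9 in the E62 WT libraries and 14.1 and 15.3 in the E62 KO libraries. It was far below wild type in the knockout at both stages, with falls of 2.21 ± 0.10 (adjusted p = 4.3e-06) and 2.23 ± 0.10 (adjusted p = 2.4e-06).

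Upstream regulators of HOX genes, a list of chromatin factors and limb signals, had 8 genes higher and 3 lower of 14 tested at E41 and 2 higher and 4 lower at E62, with a median of 0.36 and -0.17. These are 57.1% higher and 21.4% lower at E41 and 14.3% and 28.6% at E62, against 18.5% and 20.8%, then 21% and 26.2%, of all genes. HAND2, a limb factor that acts on 5′ HOXD genes in mouse, stood at 7.20 and 3.58 CPM in the E41 WT libraries, 20.6 and 20.1 in the E41 KO libraries, 0.451 and 0.589 in the E62 WT libraries and 1.79 and 1.77 in the E62 KO libraries. Its levels were lower at E62 than at E41 in both genotypes and higher in the knockout at each stage, by 1.92 ± 0.31 at E41 (adjusted p = 0.0024) and 1.77 ± 0.36 at E62 (adjusted p = 0.0050). Of the chromatin factors, the methyltransferase KMT2B and the demethylase KDM6B both rose at E41 and fell at E62. KMT2B rose by 0.77 ± 0.10 (adjusted p = 0.0011) and fell by 0.33 ± 0.10 (adjusted p = 0.032), the fall being lost in 8 of 17 alternatives, among them scaling by total count (-0.02, adjusted p = 0.893) and omission of WT E62 replicate 1 (0.0554), WT E62 replicate 2 (0.119) or KO E62 replicate 1 (0.155). KDM6B rose by 0.56 ± 0.11 (adjusted p = 0.0066, and 0.0545 when KO E41 replicate 1 was omitted) and fell by 0.76 ± 0.11 (adjusted p = 0.0012). Retinoic acid pathway genes had 5 higher and 2 lower of 15 tested at each stage (33.3% and 13.3%, against 18.5% and 20.8% of all genes at E41 and 21% and 26.2% at E62), with a median of 0.19 and 0.24. The receptor RARG rose at both stages, by 1.68 ± 0.13 (adjusted p = 8e-05) and 1.48 ± 0.13 (adjusted p = 7.5e-05), and the receptor RXRG fell at both, by 2.68 ± 0.35 (adjusted p = 0.0018) and 3.05 ± 0.36 (adjusted p = 0.00083).

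Of the 19 tested genes that flank the clusters, 2 were higher and 10 lower in the knockout at E41 and 3 higher and 8 lower at E62, with a median of -0.39 and -0.04. The shares were 10.5% higher and 52.6% lower at E41, against 18.5% and 20.8% of all genes, and 15.8% and 42.1% at E62, against 21% and 26.2%. The list is not confined to immediate neighbours. It takes in TAX1BP1, SNX10 and ATF2, which lie 478.3, 584.3 and 824.4 kb from the measured HOX genes. EVX1, a homeobox gene 57.3 kb beyond the 5′ side of the measured HOXA genes, had 39 and 21 counts in the E41 WT libraries, 3 and 0 in the E41 KO libraries, 41 and 8 in the E62 WT libraries and 0 and 0 in the E62 KO libraries. It was 42.7-fold lower at E41 (interval 13.9 to 213; adjusted p = 0.018) and at least 31.0-fold lower at E62 (adjusted p = 0.010), and was named after its values were seen. SKAP2, on the 3′ side of the HOXA cluster, rose at E62 by 1.25 ± 0.20 (adjusted p = 0.0019). LNPK, 95.3 kb beyond the 5′ side of the measured HOXD genes, fell at E62 by 1.35 ± 0.09 (adjusted p = 2.5e-05).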

How the data were processed

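The authors deposited estimated counts per gene, as whole numbers with no normalization. Kallisto and DESeq2 are the tools, and Sscrofa11.1 and susScr11 the builds, listed in the submitters' processing notes. Roles, versions, annotation release and strand setting were not given in the sources used here. Symbols were found for 15527 of 22516 identifiers. Groups and replicate numbers come from sample titles.

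Counts were rounded, filtered with filterByExpr (minimum count 10), and TMM-scaled, and all 8 libraries entered a robust quasi-likelihood fit of 4 group means with edgeR 4.0.16 under R 4.3.3 (4 residual degrees of freedom). F tests were two-sided, with Benjamini-Hochberg adjustment over 17020 genes and a threshold of 0.05. Standard errors were obtained by dividing each change by the root of its F. Chi-square over degrees of freedom between replicates was 30.0 to 68.0, above sampling noise. Most source animals are unnamed, and p-values reflect only the spread between these libraries.

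The 12 gene lists and the HOX members were chosen with earlier results of these data known. HOX genes called in any comparison with a mean of at least 1 CPM qualified for full values (22), and the 20 with the smallest p between genotypes were given in full. From each list, up to 6 genes with the smallest p could be named. The 17 alternatives were DESeq2 1.42.0, limma-voom (limma 3.58.1), 3 other scalings, 2 other filters, the replicate block, only the groups compared, and each library left out. The steps were tested on simulated data in which few genes changed, without the loss of muscle RNA seen here. That setting is unlike these data, so it does not check the scaling. One member enters the counts and medians, but its values are not reported here. No sequence is shown.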

Additional observations from a re-analysis of the deposited data

Results flagged for a closer look

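For 5 HOX genes the knockout effect at E62 differed from that at E41 by the test of the difference itself (edgeR, effect at E62 minus effect at E41, log2). HOXA3 had a difference of -1.63 ± 0.30 (adjusted p = 0.0072), with the knockout higher at E41 and not called at E62. HOXA10 had a difference of -0.95 ± 0.22 (adjusted p = 0.017) and the same course, with adjusted p of 0.060 when WT E41 replicate 2 is left out and 0.0617 when KO E41 replicate 2 is. HOXC11 had a difference of -1.53 ± 0.29 (adjusted p = 0.0083), with the knockout libraries above wild type at E41 and below at E62. HOXA7 had a difference of -1.22 ± 0.27 (adjusted p = 0.014, and 0.063 without KO E41 replicate 2), a fall at both stages that was larger at E62. HOXC6 had the only positive difference that passed, 2.57 ± 0.56 (adjusted p = 0.014, and 0.061 without KO E41 replicate 1). HOXA3 and HOXC11 kept the call in every alternative.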

How the results depend on the processing

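Of 59 calls of HOX genes over the 5 comparisons, 0 changed sign in the 17 alternatives, and calls were lost 110 times, 82 of them with a library left out. Calls held in every alternative for 5 of 11 genes between genotypes at E41, 12 of 16 at E62, 2 of 5 for the difference between stages, 6 of 12 between stages in wild type and 4 of 15 in the knockout. Of 2569 values under alternatives, 106 had another sign than in the reported fit, 104 of them called in neither.

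With a library left out, HOX genes called ran from 5 to 13 between genotypes at E41, 13 to 16 at E62, 3 to 8 for the difference, 7 to 12 between stages in wild type and 5 to 17 in the knockout. All genes called ran from 3927 to 6720, 5816 to 8131, 2499 to 4282, 4491 to 6885 and 1906 to 5022 in the same order. The lowest HOX counts came without KO E41 replicate 1 at E41 (5) and in the knockout stages (5), without KO E41 replicate 2 for the difference (3) and without WT E41 replicate 1 in wild type (7). Without WT E62 replicate 2 the E62 change of HOXD8 reversed to 0.50 (adjusted p = 0.024) and that of HOXD11 to 3.91 (adjusted p = 0.00802), and without WT E62 replicate 1 they were -0.58 (adjusted p = 0.0126) and -1.10. With library size alone the change of TGIF2 at E41 reversed to 0.28 and that of SUZ12 at E62 to 0.05; HOX genes called at E41 were then 12 higher and 1 lower.

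With the replicate block, HOX genes called were 10 at E41, 17 at E62, 7 for the difference, 11 between stages in wild type and 15 in the knockout. Deviations of same-numbered libraries correlated between -0.12 and 0.08 over all genes and between -0.13 and 0.55 over HOX genes (0.55 for the knockout groups, 0.31 for the E62 groups). Not every pair was over 0.1, so the numbers were not taken to pair libraries. With 2 libraries per group, low-count genes have wide errors.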

Other observations

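Among HOX genes with at least 10 counts in a group, the ratio of the higher to the lower replicate had a median of 1.60 in the E41 WT libraries, 1.24 in the E41 KO libraries, 1.41 in the E62 WT libraries and 1.39 in the E62 KO libraries. Its highest value was 33.0 in the E62 WT libraries, for HOXD11, where replicate 2 was high, while HOXA11 was high in replicate 1. In knockout E62 the highest value was 9.90, for HOXC13, with 112 counts in replicate 1 and 10 in replicate 2. In the same pair HOXA2 had 335 and 84 counts and HOXC12 had 14 and 0. Summed skin epithelium markers (8 of 11 in the table) stood at 460 and 7.54 CPM in these libraries, at 553 and 901 in the E41 WT libraries, 1230 and 760 in the E41 KO libraries and 22.9 and 28.7 in the E62 WT libraries, and SHH had 3.51 and 0.0501 CPM in the E62 KO libraries and 0 in wild type. Their part in the HOX values was not tested. Summed cartilage markers (13 of 14 in the table) stood at 7020 CPM in KO E41 replicate 2 and at 1260 CPM in replicate 1. They stood at 1990 and 648 CPM in the E41 WT libraries, 316 and 295 in the E62 WT libraries and 579 and 365 in the E62 KO libraries. Between the stages their median log2 change was -2.11 in wild type and -4.7 in the knockout. The part of cartilage in the HOX changes between stages was not tested.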
